A study of Manihot esculenta with 32 samples.

Results

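The 284 loci described here stood apart in friable embryogenic callus (FEC) of cassava, *Manihot esculenta*, among 32732 loci that carried a gene name. They were chosen on their own expression. For each locus the mean FPKM (the fragment count of a locus scaled for its length and for the depth of the library) of each tissue type was put on a log2(FPKM + 1) scale, the tissue types were ranked, and the locus was taken when the largest step between neighbours in that ranking was at least 1.5, lay directly below FEC, and the FEC mean was at least 10 FPKM. A cap of 300 loci was not reached, since 290 loci met these limits and 6 of them, belonging to genes not treated here, were left out.

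The libraries came from 11 tissue types of cultivar TME 204, with 3 biological replicates of each and 2 of storage root, 32 libraries in all. Leaf, midvein, petiole, stem, lateral bud, storage root, fibrous root, shoot apical meristem (SAM) and root apical meristem (RAM) were harvested from glasshouse plants that were 3 months old, and each replicate of SAM or RAM was a pool of 6 meristems. Organized embryogenic structures (OES) were sampled at 4 weeks and FEC at 7 weeks, per the labels; the study's methods give a shorter time in culture for FEC. Both cultures were kept on the synthetic auxin picloram, OES on DKW medium and FEC on Gresshoff and Doy medium with added tyrosine, so the state of the tissue and its medium cannot be told apart. All groups share this genotype.

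Cassava is regenerated in the laboratory through somatic embryos, and foreign DNA is commonly delivered to FEC, whose loosely attached cell clusters keep dividing in culture. Moving OES, which are firmer and more structured, to another basal medium gives rise to FEC. In plants generally, somatic embryogenesis involves transcription factors that also act in the zygotic embryo, among them WUSCHEL-related homeobox (WOX) genes and subunits of nuclear factor Y, together with seed proteins, cuticle and storage lipid enzymes, and transporters that feed a tissue with no vascular supply. Because whole tissues were sequenced, a low value cannot be told apart as fewer cells of a type or less RNA per cell.

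In 19 of the 284 loci the FPKM rested on at most 10 fragments in every FEC library. In 13 of them no FEC library held more than 1 fragment, and 18 had no fragment in any library outside FEC. None of the 19 was annotated. Manes.16G137800 was listed at 0, 27536 and 16813 FPKM in FEC 1, 2 and 3 on 0, 1 and 1 fragments. A single fragment was worth up to 27536 FPKM in these 19, against a median of 0.0475 FPKM per fragment in the others, and 18 of the 19 were listed at 0 in at least 1 FEC library. These loci supplied the highest FPKM values and most of the largest steps, so levels are described below for the other 265 loci, a set trimmed after the values had been seen. Counts from tests are given over all 284.

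**Figure D1:**
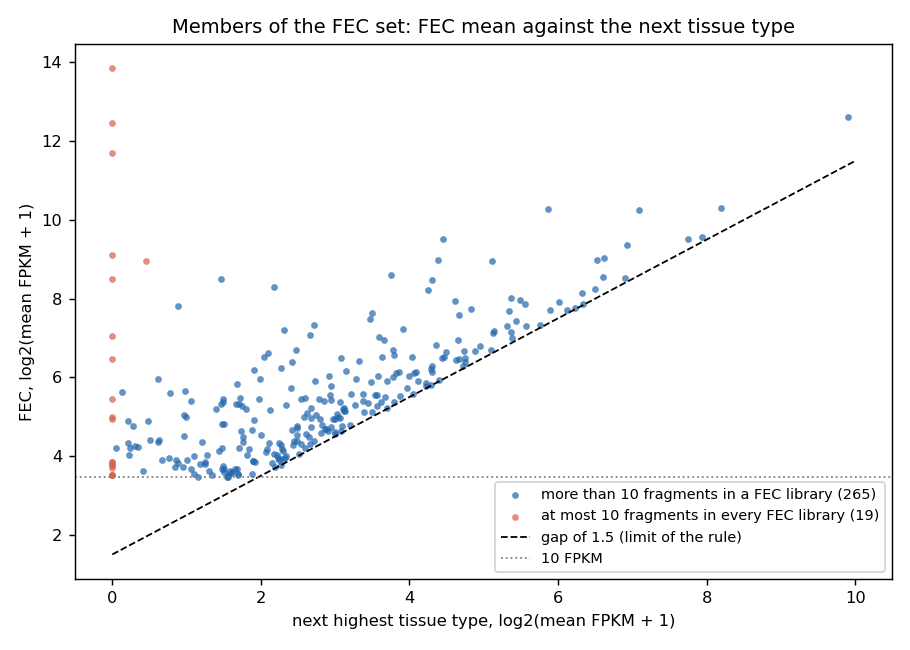
Level of each of the 284 loci in FEC (vertical axis) against its level in the next highest tissue type (horizontal axis), both as log2 of the tissue mean FPKM + 1. Blue points are the 265 loci with more than 10 fragments in an FEC library and red points the 19 others; the dashed line marks the step of 1.5 and the dotted line 10 FPKM, and the red points lie near 0 on the horizontal axis and reach far above the blue ones.

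Library FEC 2 stood apart among the FEC libraries. Of the 265 loci, 217 (81.9%) had their highest FEC value in FEC 2, 25 in FEC 3 and 23 in FEC 1. Among the 12171 other named loci of at least 10 FPKM in FEC the same share was 47.2%. The median log2 ratio of FEC 2 to the mean of FEC 1 and FEC 3 was 0.51 in the 265 loci and 0.05 in the others, and FEC 2 was at least 2-fold higher in 37 (14%) against 1.25%. The rule itself used FEC 2. Loci chosen without it had their highest value there in 161 of 220 (73.2%), whereas loci chosen without FEC 1 peaked in FEC 1 in 19 of 281 and those chosen without FEC 3 peaked in FEC 3 in 20 of 282. The libraries held 14085924, 15377287 and 24123487 fragments on named loci in FEC 1, 2 and 3, in a series that ran from 4175114 to 24123487, and the part of depth in these differences was not tested.

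**Figure D2:**
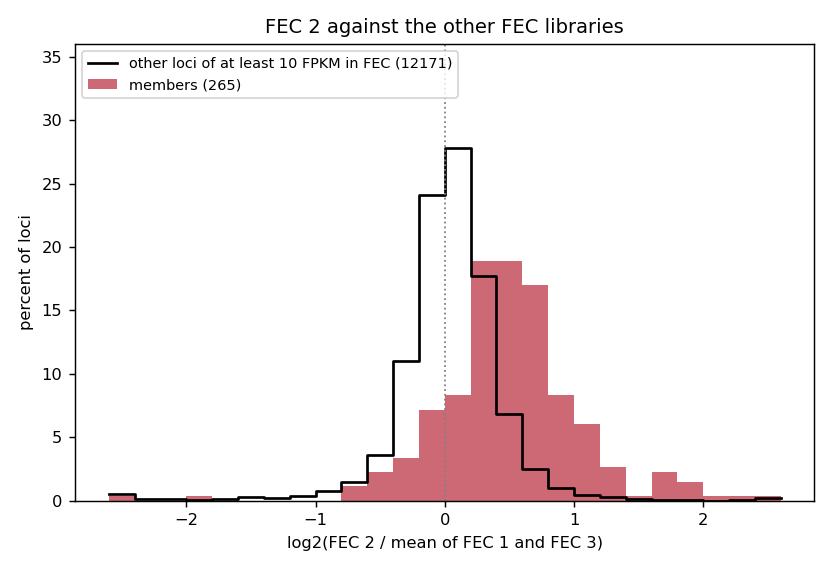
Distribution of the log2 ratio of the FPKM in FEC 2 to the mean of FEC 1 and FEC 3, as a percent of loci, for the 265 loci (bars) and for the 12171 other named loci of at least 10 FPKM in FEC (line). Ratios beyond the axis are counted in the end bins; the bars centre near 0.51 and the line near 0.05.

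The set depended on this library. Without FEC 2, 209 of the 265 loci still met the rule, against 258 without FEC 1 and 260 without FEC 3. The choice without FEC 1 reached the cap of 300, so loci may have been cut off there that met the limits. Over all named loci, the rule without FEC 2 gave 237 loci, of which 226 were among the 284. In the library that had been left out, the 220 loci chosen on FEC 1 and FEC 3 with more than 10 fragments lay above the highest other tissue mean in 219 cases and by at least 1.5 on the log2(FPKM + 1) scale in 206. Of the loci named in the text, those that did not meet the rule without FEC 2 were Manes.12G116800, Manes.09G003500, Manes.01G052800, Manes.09G086400, Manes.12G073800, Manes.09G130200, Manes.11G147900, Manes.05G029900, Manes.10G010700, Manes.03G001500, Manes.16G033100 and Manes.13G145200. For the libraries FEC 1 and FEC 3 the same counts were 279 and 235 of 281 loci, and 282 and 224 of 282. The other tissue means had also served in the choice, and no share over all loci is set beside these counts. They describe how far the FEC libraries agree and are no test of the set.

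FEC means of the 265 loci ran from 10.002 to 6303 FPKM with a median of 38.3, and 19 loci reached 300 FPKM. The step below FEC ran from 1.5 to 7.05 with a median of 2.27, and the ratio of the FEC mean to the next highest tissue mean ran from 2.92 to 521 with a median of 5.52. Every FEC library lay above every library of the other tissue types in 263 of the 265 loci. The same held for 6.47% of the 27855 named loci that reached a tissue mean of 1 FPKM; as the rule used these values, nothing is read from the difference. The exceptions were Manes.15G023900, an aspartyl protease family gene (11.9, 3.56 and 16.2 FPKM in FEC 1, 2 and 3, with 3.57 FPKM in its highest other library), and the locus of Manes.15G069400 and Manes.15G069500, whose values of 0.935, 0.749 and 94.1 FPKM made it an FEC 3 locus rather than an FEC locus.

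The word confined did not describe most of these loci. Only 12 of the 265 exceeded 10 FPKM in every FEC library and stayed below 1 FPKM in every other library, and 27 had all other tissue means below 1 FPKM. In OES 214 had a mean of at least 1 FPKM and 68 of at least 10 FPKM. In the 9 plant organs 59 loci were below 1 FPKM throughout and 45 were at or above it in all 9. They are therefore called FEC-high loci below.

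At the lower limit of the rule, Manes.11G158900 had a step of 1.504, Manes.02G038600 and Manes.12G116800 of 1.52, and Manes.09G003500 and Manes.01G052800 of 1.53. Just outside it, Manes.14G089900 had a step of 1.49 with 53.3 FPKM in FEC and 18.4 FPKM in RAM, and Manes.13G114100 one of 1.48 with 28.01 FPKM in FEC and 9.42 FPKM in leaf. Both sides of the limit thus held genes at about 3 times their next tissue type, with no break between them.

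The next highest tissue type was OES for 148 of the 265 loci, fibrous root for 28, SAM for 25, RAM for 15, leaf and lateral bud for 13 each, petiole and stem for 7 each, storage root for 6 and midvein for 3. The median of the 265 loci was 31.9 to 48.0 FPKM over the FEC libraries and 3.66 to 3.89 FPKM over the OES libraries. It was 0.0768 to 1.002 FPKM over the 26 organ libraries, lowest in storage root and highest in lateral bud. The 265 loci took 2.89 to 4.08% of the fragments on named loci in FEC, 0.366 to 0.370% in OES and 0.0735 to 0.241% in the organs. FEC and OES libraries did not overlap on this measure, but the rule chose loci for a higher mean in FEC, so nothing is read from that. OES and organ libraries did not overlap either. Between these the rule set no direction, but it kept any step below OES no larger than the step below FEC.

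**Figure D3:**
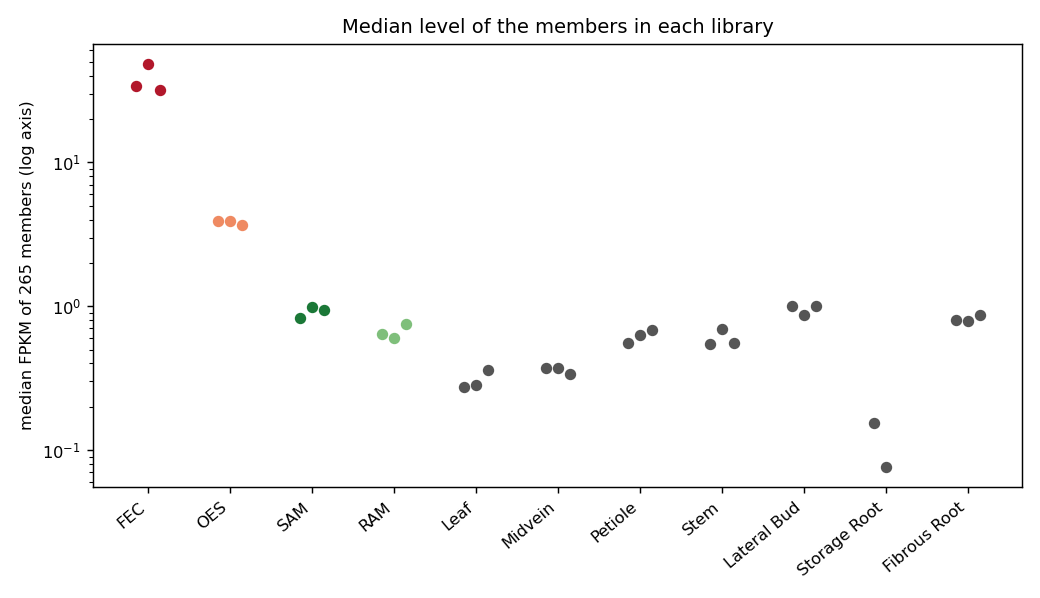
Median FPKM of the 265 FEC-high loci in each of the 32 libraries (points, log axis), by tissue type. The 3 FEC libraries sit between 31.9 and 48.0 FPKM, the 3 OES libraries between 3.66 and 3.89, and the organ libraries at or below 1.002.

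The FEC label was set against 13 loci with WOX, nuclear factor Y subunit B or SERK annotations, the matches to a list of embryogenic regulators. One of them, WOX8, was itself FEC-high, and the other 12 summed to 526 to 787 FPKM in the FEC libraries, 193 to 229 FPKM in OES and 9.17 to 86.2 FPKM in the organ libraries. WOX2 and nuclear factor Y subunit B6 held most of the FEC sum. The highest tissue type of the 13 was FEC for 3 loci and OES for 3, and 5 loci were below 1 FPKM in FEC, among them SERK1. The 34 photosystem and light-harvesting loci summed to 99.4 to 120 FPKM in FEC, to 376 to 492.5 FPKM in OES and to 71.9 to 49660 FPKM in the organ libraries.

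Among these regulators Manes.17G051300, annotated as WUSCHEL RELATED HOMEOBOX 8 (WOX8) on chromosome 17 (18870580 to 18873779 of the AM560-2 v6.1 assembly), was the only FEC-high locus. In *Arabidopsis* WOX8 acts in the basal cell lineage of the early embryo. It stood at 241, 260 and 228 FPKM in FEC 1, 2 and 3, at 23.5, 28.6 and 18.6 FPKM in OES, and at no more than 3.37 FPKM in any organ library. The FEC values lay close together and well clear of OES, and OES in turn did not overlap the organs. WOX2 (Manes.04G033600) and nuclear factor Y subunit B6 (Manes.08G068800), embryo regulators of *Arabidopsis*, shared the order FEC, OES, organs but had their largest step below OES, which kept them out of the set. WOX2 stood at 256, 315 and 238 FPKM in FEC and at 43.3, 41.8 and 33.1 FPKM in OES, and was 2.82 ± 0.26 higher in FEC (log2 fold change ± SE, edgeR quasi-likelihood test, adjusted p = 1.31e-08). The B6 subunit stood at 248, 455 and 284 FPKM in FEC and at 60.2, 54.9 and 95.5 FPKM in OES (2.17 ± 0.37, adjusted p = 9.29e-05 in the same test). Of the 12 regulators that were not FEC-high, 3 were higher and 7 lower in FEC than in OES. A call here and below requires an adjusted p below 0.05 and more than a 4-fold ratio of mean FPKM. Over the 27565 tested loci that did not meet the rule 5.33% were called higher in FEC than in OES and 6.90% lower. The lists here and below were drawn from the study's differentially expressed genes, OES against FEC among its comparisons. Listed loci were thus admitted partly on this difference, so their counts are not read against these shares.

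Of 435 loci annotated as transcription factors 17 were FEC-high. Manes.03G082800 (NAC domain containing protein 1) stood at 102, 76.5 and 94.7 FPKM in FEC and averaged 15.4 FPKM in OES. NAC1 of *Arabidopsis* acts in auxin-dependent root formation. Manes.17G017400, the homeodomain-leucine zipper gene homeobox-7, stood at 83.1, 94.4 and 90.8 FPKM in FEC, at 20.02, 18.98 and 16.8 FPKM in OES and at up to 22.2 FPKM in lateral bud. The pair annotated as AGAMOUS-like 62, a MADS-box gene of the *Arabidopsis* endosperm, was almost silent outside the cultures. Manes.07G039300 stood at 34.8, 25.4 and 31.9 FPKM in FEC and Manes.18G097600 at 13.7, 13.6 and 11.5 FPKM, and neither exceeded 0.338 FPKM in an organ library. The 417 transcription factor loci that did not meet the rule were called higher in FEC than in OES in 57 cases and lower in 162, with a median log2 fold change of -0.87 against 0.004 over all tested loci that did not meet it. As the list was drawn in part from genes called between OES and FEC, nothing is read from that difference.

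Factors of chromatin and RNA metabolism were also found. Manes.01G245700 carries the name defective in meristem silencing 3, a component of RNA-directed DNA methylation in *Arabidopsis*, and stood at 55.0, 65.9 and 46.4 FPKM in FEC with a mean of 2.19 FPKM in OES. Telomerase reverse transcriptase, Manes.10G091300, which extends chromosome ends, stood at 58.6, 62.8 and 69.4 FPKM in FEC, at 7.99, 7.24 and 6.61 FPKM in OES and between 1.36 and 15.3 FPKM in the organs. A pair annotated as nucleolar histone methyltransferase-related, Manes.10G015100 (82.0, 108 and 81.9 FPKM in FEC) and Manes.10G014800 (68.0, 74.0 and 62.5 FPKM), had organ maxima of 8.91 and 10.2 FPKM, both in SAM. The word list for chromatin and DNA methylation held 7 FEC-high loci of 60, but it searched for methyltransferases, and 5 of the 7 are annotated as enzymes of small molecules or as methyltransferases of no named substrate. The 27 cell cycle and replication loci held no FEC-high locus. Their summed FPKM was 166 to 191 in FEC, 291 to 321 in OES and 55.1 to 916 over the organ libraries. The highest tissue type was SAM for 11 of these loci, RAM for 6 and FEC for 2.

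Genes of lipid transfer, cutin and wax, which supply the surface layers of plant tissue, included the most abundant locus. Lipid transfer protein 3 (Manes.08G171800, chromosome 8, 33128727 to 33129438) stood at 5983, 7212 and 5714 FPKM in FEC and at 159, 185 and 221 FPKM in OES, and at 2.79 to 1092 FPKM over the organ libraries with a median of 540. It was thus an abundant transcript of aerial organs as well, and OES lay below many of them. A GDSL-type lipase (Manes.18G120800, chromosome 18, 11895071 to 11897990) stood at 1346, 1072 and 1305 FPKM in FEC, at 55.3, 55.4 and 61.2 FPKM in OES and at no more than 23.5 FPKM in an organ library, the highest being SAM.

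Fatty acid elongation, the first stage of wax synthesis, was represented by 3-ketoacyl-CoA synthase 5 (Manes.06G139700), which stood at 150.2, 129.6 and 122 FPKM in FEC and averaged 5.33 FPKM in OES with at most 0.499 FPKM in the organs. 3-Ketoacyl-CoA synthase 4 (Manes.17G101800) stood at 50.6, 80.1 and 43.4 FPKM in FEC. A WSD1-like acyltransferase (Manes.05G022900), of the family that joins alcohols and fatty acids into wax esters, stood at 46.2, 92.3 and 43.9 FPKM. Glycerol-3-phosphate acyltransferase 1 (Manes.01G127800), of a family that makes cutin and glycerolipid precursors, stood at 28.7, 23.2 and 29.9 FPKM. Of the 195 lipid loci 10 were FEC-high, and of the other 185 the test called 42 higher and 37 lower in FEC than in OES, with a median log2 fold change of 0.44. Against the organs 21 of the 185 were called higher in FEC and 44 lower. FEC 2 was the highest FEC library for 5 of the 10 FEC-high lipid loci, against 217 of all 265.

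Of the 68 loci of seed storage and late embryogenesis proteins 3 were FEC-high. An oleosin (Manes.05G118400), which coats seed oil bodies, stood at 17.5, 28.5 and 17.6 FPKM in FEC. The 2S albumin-type name Manes.03G068100 lay on a pair of loci, at 92.0, 94.3 and 84.6 FPKM and at 10.1, 11.8 and 13.6 FPKM, and reads may be shared between them. Of the other 65 seed and late embryogenesis loci 21 were higher and 13 lower in FEC than in OES, with a median log2 fold change of 0.40. Against the organs 11 of the 65 were called higher in FEC and 18 lower.

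Transporters of metals and nitrogen had some of the widest steps. All 11 FEC-high transporters, of 189, were highest in FEC 2, as were 217 (81.9%) of all 265 loci. ZIP-type zinc transporters import zinc and related metals. Manes.16G050100, named zinc transporter 1 precursor (chromosome 16, 9856482 to 9858528), stood at 164, 380.0 and 127 FPKM in FEC, at 0.703, 1.27 and 0.548 FPKM in OES and at no more than 0.238 FPKM in an organ library. Its step of 6.93 was the second widest of the 265. Manes.07G085500, of the same annotation, stood at 362, 805 and 337 FPKM in FEC, at 25.2, 20.4 and 14.2 FPKM in OES and at no more than 1.27 FPKM in an organ library. The iron-regulated transporter 3 (Manes.16G080800) stood at 166, 298 and 172 FPKM in FEC and up to 39.9 FPKM in RAM. FEC 2 was more than 2-fold above the mean of the other FEC libraries in both zinc transporter 1 genes, and both met the rule without it.

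Other metal carriers included YELLOW STRIPE-LIKE 7, of a family that moves metals bound to nicotianamine. Its copies stood at 24.4, 38.2 and 26.0 FPKM in FEC (Manes.04G061100) and at 14.003, 15.7 and 12.8 FPKM (Manes.02G083600). A vacuolar iron transporter (Manes.11G112800) stood at 27.8, 31.8 and 15.9 FPKM. Nitrogen uptake was represented by ammonium transporter 1;1 (Manes.12G039000), at 84.98, 135 and 89.2 FPKM in FEC, 2.81, 5.11 and 5.67 FPKM in OES and no more than 1.44 FPKM in the organs. Amino acid permease 1 (Manes.18G107300) stood at 133, 191 and 116 FPKM in FEC, 3.10, 2.10 and 3.82 FPKM in OES and up to 6.91 FPKM in midvein. Of the 176 transporter loci that did not meet the rule 47 were called higher and 31 lower in FEC than in OES, and 19 higher and 51 lower in FEC than in the organs. The share over all tested loci that did not meet the rule was, in the second comparison, 5.97% higher and 15% lower.

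Several FEC-high loci carried annotations of sulfur compounds. On the sulfur and sulfate list were 4 of them, namely 3 glutathione S-transferases and 1 sulfate transporter, while methionine gamma-lyase and the ChaC-like gene were on no list. Manes.02G002900, annotated as methionine gamma-lyase, which breaks methionine down to methanethiol, ammonia and 2-oxobutanoate, stood at 243, 518 and 171 FPKM in FEC, at 0.402, 0.349 and 0.953 FPKM in OES and at 0 to 5.58 FPKM in the organs. The groups were far apart, with FEC 2 highest and no overlap. Homocysteine S-methyltransferase (Manes.06G068700), which makes methionine, stood at 156, 239.7 and 136 FPKM in FEC and 10.2, 10.2 and 9.92 FPKM in OES. ChaC-like Manes.16G137700 (chromosome 16, 28833132 to 28835967), of a family that cleaves glutathione, was abundant, at 1143, 1534 and 979.8 FPKM in FEC, 117, 120.3 and 105 FPKM in OES and 0.347 to 251 FPKM in the organs, the highest in leaf. One of the loci that carry the name sulfate transporter 1;3 (Manes.18G070500), a root-type sulfate importer in *Arabidopsis*, stood at 60.7, 89.5 and 57.1 FPKM in FEC, 3.02, 2.69 and 3.70 FPKM in OES and up to 19.4 FPKM in lateral bud. Of the 31 sulfur and sulfate loci that did not meet the rule, out of 36, the test called 11 higher and 3 lower in FEC than in OES, with a median log2 fold change of 1.14. Against the organs 6 of the 31 were called higher in FEC and 12 lower, with a median of 0.13.

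Tau-class glutathione S-transferases, which couple glutathione to toxic compounds, included neighbours on chromosome 9. Manes.09G086300 stood at 35.0, 41.8 and 29.5 FPKM in FEC and Manes.09G086400 at 10.2, 13.7 and 9.73 FPKM. The locus beside them, of Manes.09G086100 and Manes.09G086200, has no annotation and stood at 458, 403 and 304 FPKM. A further member, Manes.09G090900 on the same chromosome, stood at 157, 203 and 120.0 FPKM. OES means of these 4 loci ran from 0.328 to 8.90 FPKM. Reads may be shared between such near copies. Another pair of neighbours carried the NmrA-like annotation, of a family named after a fungal repressor of nitrogen genes. Manes.04G089100 (chromosome 4, 22645319 to 22647178) stood at 582, 1249 and 371 FPKM in FEC, at 2.94, 1.80 and 2.26 FPKM in OES and at 4.05 to 28.1 FPKM in the organs. Manes.04G089200 (22648736 to 22651519) stood at 244, 483 and 170.5 FPKM in FEC and at 8.22, 7.64 and 5.83 FPKM in OES. The neighbours shared the peak in FEC 2 but not the pattern outside FEC, the highest organ being fibrous root for the first and SAM for the second.

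In all, 17 of the 258 FEC-high loci on chromosomes lay next to another one in the order of gene names, in 8 groups. In 3 of these groups a single name lay on 2 loci, which count as neighbours through the name alone. No share over all named loci is set beside these counts, so nothing is read on clustering. The remaining pairs were a dynamin-like gene beside the WSD1-like acyltransferase on chromosome 5, Manes.12G073800 and Manes.12G073900, and a phosphofructokinase family gene beside Manes.17G027000.

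Of other enzymes, thioredoxin H-type 1 (Manes.18G022100), a small redox protein, was abundant in every tissue type, at 1084, 1590.0 and 1098 FPKM in FEC, 131, 126 and 181 FPKM in OES and 64.7 to 449 FPKM in the organs. A 2-oxoglutarate-dependent oxygenase (Manes.17G095200) stood at 446, 801 and 320.5 FPKM in FEC and 1.75, 1.29 and 2.18 FPKM in OES, with up to 149.8 FPKM in leaf. The list of cytochrome P450 and peroxidase loci gave 4 of 108, among them Manes.13G059100 at 108, 118 and 113 FPKM and CYP87A6 (Manes.09G130200), which did not meet the rule without FEC 2, at 91.5, 134 and 84.3 FPKM. Alpha carbonic anhydrase 4 (Manes.09G017700) stood at 23.8, 21.6 and 20.01 FPKM and alpha carbonic anhydrase 7 (Manes.11G147900), which did not meet the rule without FEC 2, at 22.2, 33.4 and 15.8 FPKM. Each of the 4 carbonic anhydrase loci that did not meet the rule was called higher in FEC than in OES, while 0 were higher and 2 were lower than in the organs. ACC synthase 1 (Manes.05G029900), of ethylene synthesis, stood at 28.6, 50.1 and 23.7 FPKM and was the only FEC-high locus of 32 on the list of cytokinin, gibberellin and ethylene genes, but it did not meet the rule without FEC 2.

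The widest step of the 265 belonged to a gene of unknown function, Manes.16G001000 (DUF506, chromosome 16, 305761 to 306776), at 306, 558 and 227 FPKM in FEC, 0.428, 0.424 and 0.698 FPKM in OES and at most 2.54 FPKM in the organs. No annotation was found for 103 of the 265 loci. Of these Manes.05G054100 stood at 30.5, 59.8 and 54.3 FPKM in FEC, at 0.277, 0 and 0 FPKM in OES and at 0 in all 26 organ libraries. Manes.S072900 stood at 52.3, 73.0 and 58.7 FPKM in FEC, at 0 in each OES library and at up to 0.896 FPKM in SAM.

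**Figure D4:**
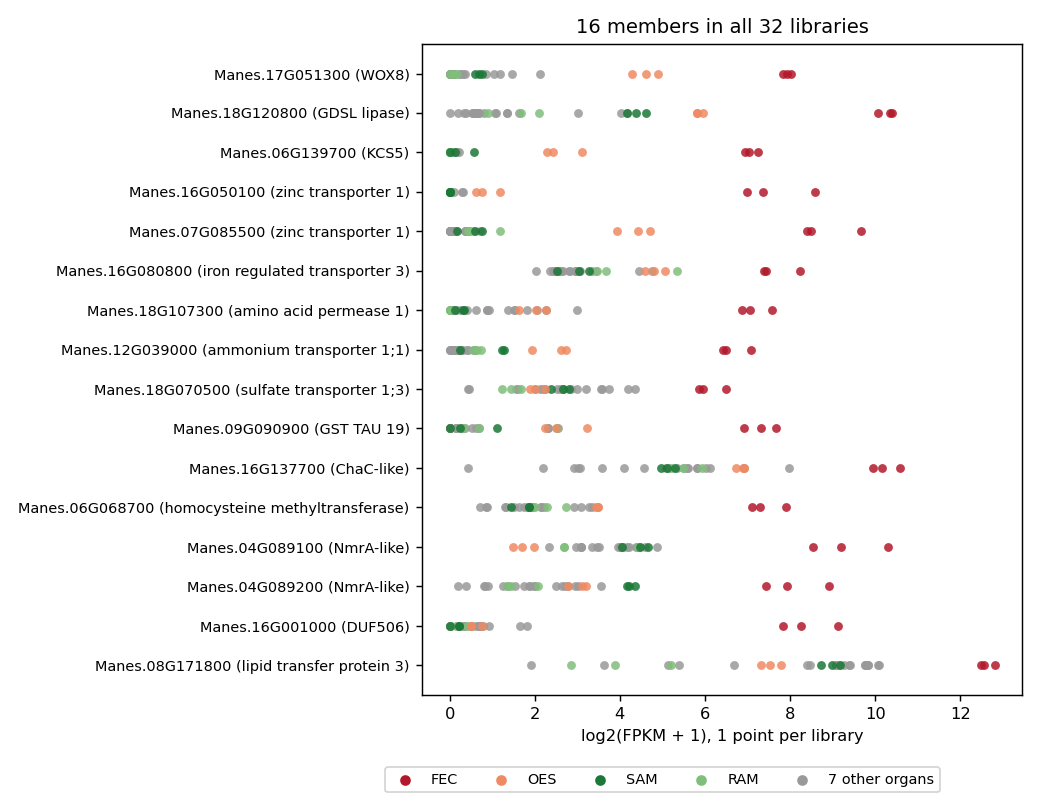
Level of 16 FEC-high loci in each of the 32 libraries as log2(FPKM + 1), 1 row a locus and 1 point a library, coloured by FEC, OES, SAM, RAM and the 7 other organs. The FEC points lie to the right of all others in every row, with OES next in rows such as WOX8 and zinc transporter 1 and among the organs in rows such as lipid transfer protein 3.

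Kinases and receptors gave 8 FEC-high loci of 334, auxin 1 of 61, cell wall 2 of 177, glycosyltransferases 3 of 73, and defence and stress 1 of 100. Of the 60 auxin loci that were not FEC-high 6 were higher and 30 lower in FEC than in OES, with a median log2 fold change of -1.98. The 31 other loci of cytokinin, gibberellin and ethylene gave 3 higher and 15 lower. The photosystem list of 34 loci and the tyrosine list of 8 held no FEC-high locus. Over all tested loci 284 of 27855 were FEC-high. The lists hold annotated loci only, and the share of FEC-high loci among all annotated loci is not given here. List counts here and above are therefore not read as an excess or lack of a group. In all 72 of the 265 loci were on at least 1 list, and 59 of them met the rule without FEC 2. Annotation came from the differentially expressed genes that the study had listed from these same libraries. Neither the make-up of the lists nor their counts for FEC against OES are therefore independent of the levels.

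FEC-high loci differed in how well the FEC libraries agreed. Manes.08G014700 stood at 17.5, 17.95 and 17.3 FPKM and Manes.09G026600 at 45.5, 47.5 and 47.3 FPKM. By contrast the stress induced protein gene Manes.10G010700 stood at 3.55, 24.9 and 5.52 FPKM, an aquaporin-like gene (Manes.01G160000) at 19.4, 69.0 and 33.8 FPKM, and a blue-copper-binding protein gene (Manes.11G056400) at 28.7, 94.6 and 23.6 FPKM. All 3 were highest in FEC 2. The median coefficient of variation over the FEC libraries was 0.241 for the 265 loci and 0.103 for the other loci of at least 10 FPKM in FEC.

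Whether the FEC-high loci were also raised in the other embryogenic culture was asked with FEC left out of the contrast. OES was higher than the mean of the 9 plant organs at 114 of the 284 loci (40.1%), against 5.0% of all loci tested, and lower at 4 (1.41%), against 12.2%. The median log2 fold change was 2.52 over the 284 loci and 0.01 over all loci tested. The rule set no direction between OES and the organs, but it kept any step below OES no larger than the step below FEC. It also admitted only loci expressed in an embryogenic culture. The part of these limits in the difference was not tested. Over the 265 loci the counts were the same, and the median OES mean was 3.82 FPKM against 1.12 FPKM for the mean of the organs. Of the 209 loci that met the rule without FEC 2, 97 (46.4%) were higher and 3 lower in OES. Leaving out a single library from the fit gave 105 to 117 higher loci, and with the FPKM of each library rescaled to the same sum there were 147.

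**Figure D5:**
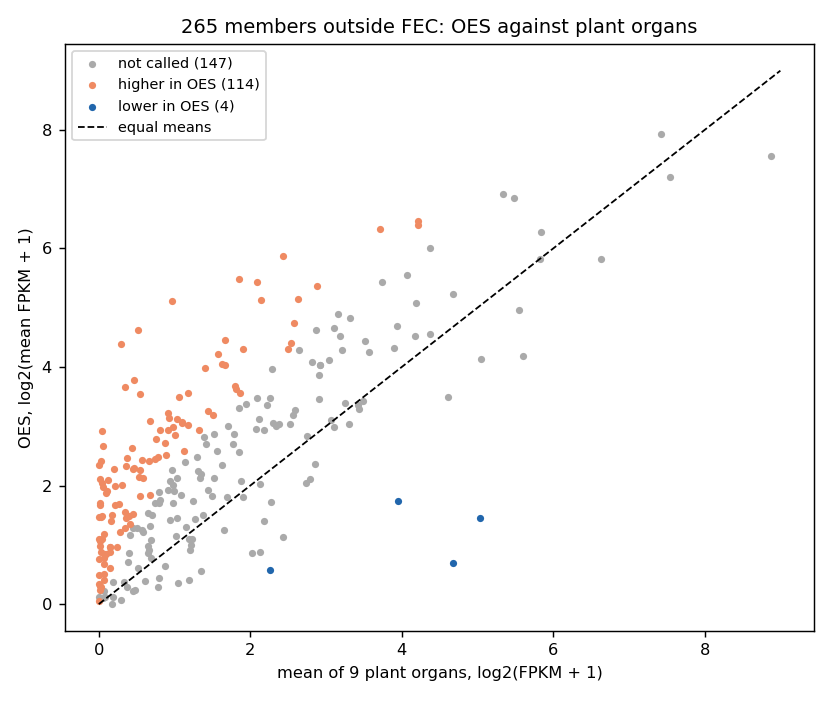
Mean level in OES (vertical axis) against the mean of the 9 plant organs (horizontal axis) for the 265 FEC-high loci, as log2(FPKM + 1). Orange points are the 114 loci called higher in OES, blue points the 4 called lower, and grey points the rest; most points lie above the diagonal.

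Here and below, a fold change fitted over several tissue types averages them on the log scale. The mean FPKM printed beside it is an arithmetic mean over tissue types, so the fold change need not match the ratio of these means. Among the loci higher in OES were WOX8 (23.6 ± 4.97 FPKM in OES, SD, n = 3, against 0.429 FPKM over the organs), with a log2 fold change of 7.18 ± 0.28 (edgeR adjusted p = 1.82e-17). 3-Ketoacyl-CoA synthase 5 was 8.03 ± 0.38 higher on the log2 scale (edgeR adjusted p = 5.77e-12), zinc transporter 1 Manes.07G085500 was 7.44 ± 0.27 higher (edgeR adjusted p = 3.56e-17) and the GDSL-type lipase 5.47 ± 0.21 higher (edgeR adjusted p = 1.22e-17). The same call was reached by 7 of the 10 lipid loci, 9 of the 17 transcription factors, 3 of the 3 seed protein loci, 4 of the 11 transporters and 0 of the 8 kinases. At the 5 loci of largest ratio all 26 organ libraries were at 0, so no fold is given. Manes.05G194000 (DUF1264) stood at 2.92, 5.36 and 3.91 FPKM in OES, Manes.10G103300 (TRAF-like) at 0.322, 0.636 and 0.238 FPKM, and the second Manes.03G068100 locus at 1.57, 1.25 and 2.52 FPKM. Manes.05G014500 (0, 1.27 and 0.804 FPKM in OES, edgeR adjusted p = 0.0219) lost its call without OES 2 (log2 fold change 1.87, adjusted p = 0.0863) or OES 3 (2.03, adjusted p = 0.0815), and Manes.05G142700 (0.195, 0.613 and 0 FPKM, edgeR adjusted p = 0.0103) lost it without OES 2 (1.93, adjusted p = 0.0957). DESeq2 called none of these 5 loci, with adjusted p from 0.0538 to 0.883.

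The 4 loci lower in OES than in the organs formed the opposite pattern, a level in FEC and in some organs with a trough in OES. Manes.03G001500 (DUF599) stood at 195, 266 and 161 FPKM in FEC, at 1.13, 0.511 and 0.228 FPKM in OES and at 48.4, 68.2 and 58.9 FPKM in fibrous root. It met the rule only with FEC 2, and its OES level lay 4.27 ± 0.50 below the organs on the log2 scale (edgeR adjusted p = 4.61e-08). The 2-oxoglutarate-dependent oxygenase Manes.17G095200 averaged 1.74 ± 0.446 FPKM in OES (SD, n = 3) and 31.8 FPKM over the organs (log2 fold change -3.47 ± 0.41, edgeR adjusted p = 4.79e-08). The NmrA-like gene Manes.04G089100 averaged 2.33 ± 0.573 and 14.4 FPKM (-2.54 ± 0.50, edgeR adjusted p = 8.53e-05). An alpha/beta-hydrolase (Manes.05G171700) averaged 0.483 ± 0.137 and 3.78 FPKM (-1.70 ± 0.49, edgeR adjusted p = 0.00404), a call that was lost without storage root 1 (-1.33, adjusted p = 1).

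The meristems, organs rich in dividing cells, were compared with the 7 other organs. SAM and RAM were higher at 21 of the 284 loci (7.39%), against 5.87% of all loci tested, and lower at 14 (4.93%), against 9.25%. The median log2 fold change was 0.32, against 0.01 over all loci. A total of 260 of the 284 reached a mean of 1 FPKM in an organ, and among these 8.08% were called higher, against 5.87%, and 5.38% lower, against 9.26%. With a fitted log2 fold change beyond 2 in place of the FPKM ratio, 45 of the 284 (15.8%) were higher, against 8.42% of all loci tested. The meristem libraries were also made with another RNA kit and fragmentation, which cannot be told apart from the tissue. The largest ratio belonged to an O-methyltransferase (Manes.16G033100, a locus that met the rule only with FEC 2), at 15.4, 20.9 and 20.6 FPKM in SAM, 27.2, 16.2 and 13.9 FPKM in RAM and a mean of 1.26 FPKM in the 7 other organs, with a log2 fold change of 6.18 ± 0.24 (edgeR adjusted p = 1.06e-16). An XS domain gene (Manes.07G014000), of a plant family tied to gene silencing, averaged 3.90 and 0.428 FPKM (5.66 ± 0.42, edgeR adjusted p = 4.84e-11). Unannotated loci among the 5 of largest ratio were Manes.13G145200 (2.64 ± 0.57), the locus of Manes.13G131000 and Manes.13G131100 (4.66 ± 0.42) and 1 of the loci named Manes.13G107300 (3.83 ± 0.83).

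Of those lower in meristems, an early nodulin-like gene (Manes.15G088000) averaged 0.416 FPKM in the meristems and 4.61 FPKM in the other organs (log2 fold change -4.07 ± 0.64, edgeR adjusted p = 4.14e-06), and amino acid permease 1 averaged 0.0984 and 1.22 FPKM (-3.71 ± 1.11, edgeR adjusted p = 0.00529). A glutamine amidotransferase-like gene (Manes.02G070700) averaged 0.431 and 4.26 FPKM (-2.53 ± 0.38, edgeR adjusted p = 1.88e-06). The rhodanese-type phosphatase gene Manes.02G111200 had no fragment in a meristem library and 1.65 FPKM in the others, a call lost without lateral bud 1 (log2 fold change -5.02, adjusted p = 1). NAC domain containing protein 2 (Manes.15G084700), at 0.102 and 1.58 FPKM, lost its call without storage root 1 (log2 fold change -2.90, adjusted p = 1).

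Subterranean organs (storage root, fibrous root and RAM) were compared with the 6 aerial ones. They were higher at 13 of the 284 loci (4.58%), against 5.11% of all loci tested, and lower at 30 (10.6%), against 9.46%, with a median log2 fold change of -0.06 against -0.01. In the fit of the organ libraries alone, 5.38% of the 260 loci with a fragment there were called higher, against 5.09%, and 11.5% lower, against 9.49%. Alpha carbonic anhydrase 7 stood at 2.04, 9.04 and 8.46 FPKM in RAM, 2.83, 3.43 and 7.53 FPKM in fibrous root and at a mean of 0.0293 FPKM in aerial organs (6.78 ± 0.58, edgeR adjusted p = 2.61e-09). A kelch-repeat gene (Manes.17G103600) averaged 7.54 FPKM below ground and 0.123 FPKM above it (6.72 ± 0.43, edgeR adjusted p = 4.95e-12).

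The reverse held for homeobox-7, with 0.0354 FPKM below ground and 7.88 FPKM above it (log2 fold change -7.45 ± 0.23, edgeR adjusted p = 1.23e-19), and for a Pollen Ole e 1 family gene (Manes.11G090800), with 0.0139 and 4.84 FPKM (-7.65 ± 0.44, edgeR adjusted p = 4.35e-13). Lipid transfer protein 3 averaged 33.3 and 688 FPKM (-4.51 ± 0.45, edgeR adjusted p = 1.75e-09). Manes.12G077000, unannotated, was at 0 in each subterranean library and averaged 3.21 FPKM in aerial organs. Several calls among the named genes were lost when 1 library was left out, at some loci for more than 1 choice of library. In these losses, here and above, the fitted change kept its sign. What lay behind an adjusted p near 1 at such fold changes was not tested. Without storage root 2, Manes.S104100 (2.85 and 0.00274 FPKM below and above ground) and the WRKY gene Manes.15G068800 (1.67 and 0.0892 FPKM) were no longer called (log2 fold changes 5.79 and 2.62, adjusted p = 1), nor was the glucosyltransferase UGT85A3 (Manes.07G123400, 0.787 and 0.0285 FPKM) without RAM 3 (3.33, adjusted p = 1). A Bax inhibitor family gene (Manes.03G187200, 0.0179 and 1.92 FPKM) lost its call without midvein 3 or petiole 1 (-3.83 and -3.91), and a RING/U-box gene (Manes.15G071700, 0.00886 and 0.573 FPKM) without leaf 2 or midvein 2 (-2.94 in both, adjusted p = 1 in each case).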

How the data were processed

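RNA-seq was done on 32 libraries of 11 tissue types. Per the labels and the study's methods, reads were trimmed with Trimmomatic 0.32, aligned with TopHat2 (2.0.10 in the labels, another version in the methods) to the AM560-2 v6.1 cassava genome and quantified with Cufflinks and Cuffdiff 2.2.1; use of strand in counting is not given in the sources used here. The deposited FPKM values, 1 for each locus and library, were made by the authors with Cuffdiff. The estimated counts, deposited by the authors beside them, are fragments assigned to each locus, and 78.2% of those above 0 on named loci were whole (tolerance 1e-06). A matrix that repeats the FPKM and a column of internally scaled fragments were not used.

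Libraries were grouped by tissue label. Members were chosen from tissue means of FPKM on a log2(FPKM + 1) scale. Estimated counts were rounded and fitted with edgeR 4.0.16 (limma 3.58.1, R 4.3.3): TMM scaling (factors 0.720 to 1.15), 11 tissue means over all 32 libraries, common biological coefficient of variation 0.264, the quasi-likelihood test with Benjamini-Hochberg adjustment over the 27855 named loci that reached a tissue mean of 1 FPKM. A locus was called at an adjusted p below 0.05 with a ratio of mean FPKM above 4 in the fitted direction. FEC-high loci entered the fit, but their contrasts with FEC are not reported, since the rule used them; shares and list counts of those contrasts cover loci that did not meet the rule. The study calls the replicates biological, but the labels do not tie each to its own plant or culture, so p-values measure the spread between these samples. The script was tested on simulated data. Other tools were DESeq2 1.42.0, Python 3.11.15, pandas 2.3.3, numpy 2.4.6 and matplotlib 3.10.9.

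The libraries held 4175114 to 24123487 fragments on named loci, and FEC-high loci with more than 10 fragments in an FEC library had a lowest FEC count of 15 and a median lowest count of 550. Loci of several genes (26 of the 265) and names on more than 1 locus (19) share reads in ways that cannot be resolved here.

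The members and all gene lists were chosen with earlier results of these data known. Lists are words searched in the annotation of the study's own tables of differentially expressed genes, some of which were held only in part, so an unlisted gene may belong to a group. Named were the loci of highest FEC mean, widest and narrowest step, highest and lowest coefficient of variation in FEC, up to 4 loci a list, up to 5 loci a contrast and direction, and neighbours. Outside this rule, and chosen after their values were seen, were methionine gamma-lyase, ketoacyl-CoA synthase 4, glycerol-3-phosphate acyltransferase 1, the AGAMOUS-like 62 pair, defective in meristem silencing 3, telomerase, the nucleolar methyltransferase pair, ammonium transporter 1;1, the YELLOW STRIPE-LIKE 7 pair, the vacuolar iron transporter and the loci given for overlap, for silence outside FEC or for spread between FEC libraries. Sequences are not used here.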

Additional observations from a re-analysis of the deposited data

Results flagged for a closer look

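Outside the loci with a gene name, which alone were used above, the files held 5861 loci without one. The same rule picked 89 of these, and 73 had more than 10 fragments in an FEC library. At least 50 fragments in every FEC library were found for 46 of them, with FEC means of 10.9 to 296 FPKM. They stood out as transcripts of FEC in data that the comparisons above do not use, and they carry no annotation.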

How the results depend on the processing

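The number of FEC-high loci, 284 members, was 188 with a step of at least 2, and 237 to 300 when single libraries were left out, the lowest without FEC 2. The other settings tried for the rule gave 201 to 300. Both ranges reached the cap of 300, so their upper ends are cut off. With adjusted p alone as the limit, OES against 9 plant organs gave 220 members higher and 9 lower, meristems against 7 other organs 85 and 41, and subterranean against aerial organs 39 and 79. The same limit gave 5468 higher and 5424 lower loci that are not members for FEC against OES (main 1476 and 1901), and 9912 and 7966 for FEC against 9 plant organs (main 1653 and 4131). A fitted log2 fold change beyond 2 in place of the FPKM ratio gave 45 members higher in meristems (2345 of all 27855 loci) and 3268 other loci higher in FEC than in the organs. limma on log2(FPKM + 1) and log2(FPKM + 0.1) gave 22 and 24 members lower in meristems and 32 and 34 higher in subterranean organs, where DESeq2 gave 28. FPKM rescaled to equal sums moved FEC against the organs to 2404 higher and 3397 lower, and OES against the organs over all loci from 1392 higher and 3398 lower to 1910 and 2805.

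Leaving out single libraries gave 105 to 117 members higher and 3 to 5 lower in OES than in the organs, 19 to 23 and 12 to 16 for meristems, and 10 to 14 and 27 to 32 for subterranean organs. For loci that are not members it gave 1261 to 1491 higher and 1731 to 1919 lower in FEC than in OES, and 1598 to 1672 and 3960 to 4147 against the organs. The causes were not tested. In all, 450 of the alternative counts stayed within 1.5 times the main count, 17 rose above and 1 fell below, and none reversed. Of the log2 fold changes of named loci, 1197 kept their call and 21 lost it. Of the step values of named loci 119, at 51 loci, moved by more than the spread between replicates and 3309 did not. The restriction to loci with more than 10 fragments was chosen after seeing the data.

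Replicate numbers recur across tissue types. With the replicate block 113 members were higher and 4 lower in OES than in the organs, 21 and 15 in meristems, and 13 and 30 in subterranean organs, and of the named calls it changed only Manes.05G014500 (adjusted p = 0.0513). Correlations of same-numbered libraries of different tissue types ran from -0.112 to 0.310, and 16 of 155 exceeded 0.1. Their median was 0.023, against -0.007 for libraries of different numbers. Still, for 29 of the 32 libraries the mean correlation of the deviations with other tissue types was highest for their own number. A weak effect shared by replicate number is therefore present. The main fit left the number out, and the source of the effect was not tested. Loci near 15 fragments in FEC are limited by depth.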
